A study of Mus musculus with 6 samples.

Results

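The transcripts described here are those of 6 mitochondrial genes, mt-Co1, mt-Co2, mt-Co3, mt-Atp8, mt-Atp6 and mt-Cytb, out of 37 annotated genes on the mouse mitochondrial chromosome. They were measured in mES, the V6.5 line of mouse embryonic stem cells, and in mEF, embryonic fibroblasts of the mouse bought as Globalstem GSC-6002 (10.5 p.c.). Both were unmodified and cultured with 15% fetal bovine serum, and the mES medium also held LIF and BME. Single cells in drops were labeled with 1 of 1152 barcodes that prime at poly(A), and cDNA from 6 libraries, each labelled with both cell types, was sequenced. The authors pooled the aligned reads of each cell type into 1 aggregate, so each cell type is 1 pool without replicates and no p-value can be given. A record is 1 alignment of a read. It was given to a gene when it lay on the plus strand and its 5′ end fell within the gene. This selected 5329 of 750739 mES records and 8201 of 459005 mEF records. The labelled cell types were not checked against marker genes here, because no annotation of the build in use, mm9, was at hand.

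The mitochondrial chromosome is transcribed as long precursors from which the tRNAs that stand between genes are cut out, and most of the mRNAs released in this way receive a short poly(A) tail. The mRNAs encode subunits of the respiratory chain. mt-Co1, mt-Co2 and mt-Co3 form the core of cytochrome c oxidase (complex IV), mt-Atp6 and mt-Atp8 are membrane subunits of ATP synthase, and mt-Cytb is a subunit of complex III. The nuclear genome carries old copies of mitochondrial DNA, and short reads that match both places equally well are listed at both.

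In the coordinates of the files, mt-Co1 (ENSMUSG00000064351.1) runs from 5328 to 6872 on the mitochondrial chromosome, mt-Co2 (ENSMUSG00000064354.1) from 7013 to 7696, mt-Co3 (ENSMUSG00000064358.1) from 8607 to 9390 and mt-Cytb (ENSMUSG00000064370.1) from 14145 to 15288. mt-Atp8 (ENSMUSG00000064356.3) was counted from 7766 to 7926 and mt-Atp6 (ENSMUSG00000064357.1) from 7927 to 8606, so that each base belonged to 1 gene. All are single coding exons on the plus strand. The last 60 bases of each gene are shown because the libraries are primed at poly(A), which begins at or after these ends. Capitals mark the stop codon, or the single T that remains of it in mt-Co3 and mt-Cytb, whose codons are completed by the poly(A) tail.
mt-Co1: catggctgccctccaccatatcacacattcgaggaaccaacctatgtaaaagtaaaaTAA
mt-Co2: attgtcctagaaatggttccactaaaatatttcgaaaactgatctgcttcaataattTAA
mt-Atp8: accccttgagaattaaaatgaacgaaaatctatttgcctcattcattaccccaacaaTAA
mt-Atp6: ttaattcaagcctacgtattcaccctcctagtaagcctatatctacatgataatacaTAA
mt-Co3: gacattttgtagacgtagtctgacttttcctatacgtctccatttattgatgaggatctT
mt-Cytb: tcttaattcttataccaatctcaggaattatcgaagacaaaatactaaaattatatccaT

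mt-Atp8 and mt-Atp6 are read from 1 shared mRNA and overlap by 43 bases in different frames. In the overlap, shown because it could have been counted for either gene, capitals mark the start codon of mt-Atp6 and the stop codon of mt-Atp8.
Overlap: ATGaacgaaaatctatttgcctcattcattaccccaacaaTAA
No 5′ end of either aggregate fell in these bases (0 records, which allows at most 4.91 CPM of mES and 8.04 CPM of mEF), so the placement of the border changed no count. CPM here is records per 1000000 records of the aggregate.

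The read names show 3 sequencing runs, numbered by size. In the 6 genes, 253 of 261 mES positions of run 2 and 221 of 225 mEF positions were also in run 1, where a position is a base that holds at least 1 5′ end. Run 3 shared 7 of 36 and 8 of 16 positions with the other runs. Runs 1 and 2 held 641929 mES and 429324 mEF records, of which 1.61% and 2.80% lay on the mitochondrial chromosome. Run 3 held 108810 and 29681 records, with 8.84% and 5.47% on that chromosome, and it stood apart in its content, as mitochondrial rRNA made up 97.7% of its mitochondrial mES records and 93.0% of its mitochondrial mEF records. All second copies, where the same alignment of a read is listed again, were in run 3. They were 24108 of its mES and 2529 of its mEF records, and they count in its totals. The levels and ratios of each gene are therefore given by run. Since runs 1 and 2 hold nearly the same positions, run 2 is no independent repeat of run 1, and like values in both say nothing of the spread between cultures or libraries. Other values are over all runs unless a run is named. All intervals are exact at 95% and cover counting error only, since copies of one molecule made by PCR are not independent.

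The 6 genes together were 2.52-fold higher in mEF than in mES (interval 2.43 to 2.61), with 7098 CPM in mES (interval 6909 to 7292) against 17867 CPM in mEF (interval 17482 to 18258). They made up 49.9% of the mitochondrial records of runs 1 and 2 in mES and 67.5% in mEF. The fold was 2.35 (2.27 to 2.44) in runs 1 and 2 together, with 2.36 in run 1 and 2.33 in run 2. In run 3, where the 6 genes had only 160 mES and 71 mEF records, the levels were 1470 and 2392 CPM. The fold there was 1.63 (1.21 to 2.16). The fold over all runs thus lies above that of each single run. Run 3, with its low levels, held 108810 of 750739 mES records and 29681 of 459005 mEF records. Of the 6 genes, 5 were higher in mEF and the remaining one, mt-Atp8, had 14 records in mES and none in mEF. The share of all loci higher in mEF at any fold was not computed, so this count has no background beside it. For the background, the records of the whole genome were joined into 4321 loci, with 5′ ends at most 500 nt apart and at least 50 records. Of these loci 35% were over 2-fold higher in mEF, against 4 of the 6 genes, and 24.6% were over 4-fold higher in mEF, against 1 of the 6 genes. In the direction of mES 39.3% of the loci were past 2-fold and 30.2% past 4-fold, against mt-Atp8 alone past 2-fold and no gene past 4-fold. The 6 genes were not held to the minimum of 50 records, and mt-Atp8, with its 14, does not reach it. The call of mt-Atp8 is not a firm one. With 3 counts in place of the mEF zero, its log2 ratio was 1.51 over all runs, with an exact lower limit of 1.02. It was 0.55 when second copies of a record were dropped. Within run 3, which holds all records of mt-Atp8, the ratio was 0.35, with a lower limit of -0.14. In runs 1 and 2, where mt-Atp8 had no record, the shares of 4180 loci were 34.8% and 23.6% in the direction of mEF, against 4 and 0 of the 5 genes, and 40.2% and 30.9% in that of mES, against none. The median log2 ratio of mES to mEF was -1.48 over the 6 genes, with 3 counts in place of the mEF zero of mt-Atp8, and 0.10 over all loci. In pools, a smaller share of cells with these transcripts and less of the RNA per cell cannot be told apart.

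**Figure D1:**
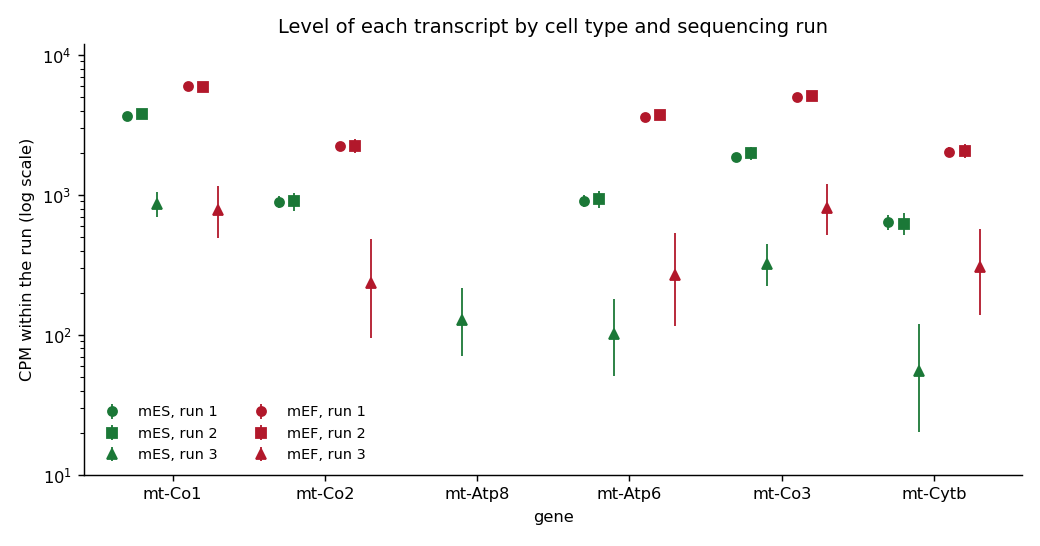
Level of each gene in CPM within a sequencing run (log scale), for mES (green) and mEF (red) in runs 1, 2 and 3, with exact 95% Poisson intervals; points without a record are left out. Runs 1 and 2 lie close together in each cell type, run 3 lies lower, and the mEF points are above the mES points of runs 1 and 2 for every gene but mt-Atp8.

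Among the oxidase genes, mt-Co1, the catalytic subunit that holds the oxygen-reducing center, had mES levels of 3678, 3761 and 864 CPM in the 3 runs and mEF levels of 6025, 5946 and 775 CPM. The mEF values were the higher ones in runs 1 and 2, while in run 3 the order was turned and the intervals of the 94 mES and 23 mEF records overlapped. Over all runs its log2 ratio of mES to mEF was -0.78 (-0.86 to -0.70), the smallest difference of the 3 oxidase genes. In runs 1, 2 and 3 the ratio was -0.71, -0.66 and 0.16.

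mt-Co2, the subunit that takes electrons from cytochrome c, was at 894 and 900 CPM in runs 1 and 2 of mES and at 2222 and 2231 CPM in mEF. In run 3 it had no mES record, which allows up to 33.9 CPM, and 7 mEF records, or 236 CPM. The intervals of the cell types did not overlap in any run, and the log2 ratio over all runs was -1.45 (-1.60 to -1.30).

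mt-Co3, the remaining core subunit, was at 1865, 1981 and 322 CPM in the 3 runs of mES and at 4994, 5126 and 809 CPM in mEF. It was higher in mEF in each run, with log2 ratios of -1.42, -1.37 and -1.33 and intervals that lie below 0. Per kilobase of gene it had the highest level of the 6 in mEF, at 6075 CPM per kb, and in mES it was level with mt-Co1, at 2134 and 2131 CPM per kb. As the reads come from 3′ ends, their number need not grow with length.

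Of the ATP synthase genes, mt-Atp6, part of the proton channel, had the largest ratio of the 6 genes. Its mES levels were 912, 929 and 101 CPM in the 3 runs and its mEF levels were 3596, 3737 and 270 CPM. It was higher in mEF in each run, although in run 3, with 11 mES and 8 mEF records, the interval of the log2 ratio (-2.86 to 0.10) includes 0. Over all runs it was 4.28-fold higher in mEF (3.90 to 4.71), and 3.97-fold (3.61 to 4.37) without run 3. By run it was 3.94-fold, 4.02-fold and 2.67-fold higher in mEF, so the value over all runs lies above that of each single run. It was the one gene over 4-fold when all runs are pooled, and it lies within 4-fold in runs 1 and 2 together. Per kilobase its level was 1175 CPM in mES, close to the 1120 CPM of mt-Co2, and 5033 CPM in mEF, next below mt-Co3.

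mt-Atp8, a small accessory subunit read from the same mRNA as mt-Atp6, had almost no 5′ ends. Its 14 mES records were 7 reads, each listed 2 times, at 1 position 110 nt before the end of the counted stretch, and all came from run 3. It had no record in runs 1 and 2 of either cell type and none in mEF, where 0 records allow up to 8.04 CPM. At mt-Atp6, which follows on the same mRNA, 92.8% of the mES and 94.8% of the mEF records began less than 300 nt before the end of the window.

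mt-Cytb, the subunit of complex III that carries its hemes b, was at 636, 624 and 55.1 CPM in the 3 runs of mES and at 2021, 2068 and 303 CPM in mEF. It was higher in mEF in each run, with intervals that lie below 0 on the log2 scale, and run 3 held only 6 mES and 9 mEF records. Over all runs it was 3.51-fold higher in mEF (3.11 to 3.95). Per kilobase it was the lowest of the 5 genes other than mt-Atp8, at 480 CPM per kb in mES and 1682 in mEF.

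These records rest on few starting points. The 5329 mES records lay at 325 positions, or 16.4 records per position, and the 8201 mEF records at 252, or 32.5 per position. When positions are counted in place of records, relative to the 53947 positions of the mES aggregate and the 25252 of the mEF aggregate, the 6 genes were 1.66-fold higher in mEF (1.40 to 1.96). Relative to these totals the 5 genes other than mt-Atp8 were each higher in mEF. The log2 ratios were -0.41 for mt-Co1, -0.79 for mt-Co2, -1.17 for mt-Atp6, -0.92 for mt-Co3 and -0.77 for mt-Cytb. Without the totals, only mt-Atp6 had more positions in mEF, with 37 in mES and 39 in mEF. mt-Co1 had 133 and 83, mt-Co2 47 and 38, and mt-Co3 77 and 68. The direction thus depends on the totals, and the share of all loci higher in mEF by positions was not computed. The interval of mt-Cytb (-1.60 to 0.06), with 30 mES and 24 mEF positions, includes 0. Positions merge molecules of different cells that start at the same base, and the records per position moved with the difference between cell types. What part they have in it was not tested.

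**Figure D2:**
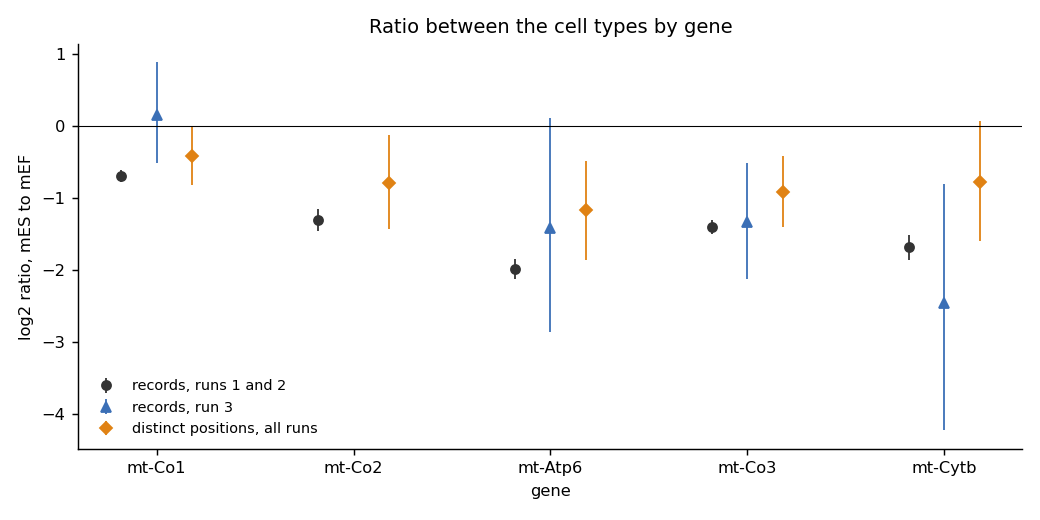
Log2 ratio of mES to mEF for 5 genes, from the records of runs 1 and 2 (black), the records of run 3 (blue) and distinct positions of all runs (orange), with exact 95% intervals; mt-Co2 has no mES record in run 3 and mt-Atp8 is left out. All values but that of mt-Co1 in run 3 lie below 0, and ratios by positions are nearer to 0 than ratios by records of runs 1 and 2.

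The other mitochondrial genes were compared only to place these values. In runs 1 and 2 the 7 genes of complex I together, mt-Nd1 to mt-Nd6 and mt-Nd4l, were also higher in mEF, at 2449 CPM in mES and 4288 CPM in mEF (log2 ratio -0.81, -0.91 to -0.71), against -1.23 (-1.28 to -1.18) for the 6 genes described here. The 2 rRNAs, mt-Rnr1 and mt-Rnr2, together went the other way, at 4812 CPM in mES and 3254 CPM in mEF (0.56, 0.47 to 0.66). Of these, mt-Rnr2 had a log2 ratio of 0.67 (0.57 to 0.77), while mt-Rnr1 showed no difference, at -0.024 (-0.26 to 0.21). The records of the 6 genes thus exceeded those of rRNA in both cell types in runs 1 and 2, with 5169 against 3089 in mES and 8130 against 1397 in mEF. In run 3 the order was turned, with 160 against 9401 in mES and 71 against 1509 in mEF.

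The mapping score tells whether the aligner placed a read at 1 or at several sites. Of the 6 genes' records, 87.3% in mES and 87.3% in mEF had a score below the highest one, which marks a single placement, against 22.1% and 22.2% of all records. Among all records a read counts at each placement. By reads, 48531 of 612194 in mES and 32654 of 387359 in mEF had a lower score. Of the complex I genes, over both aggregates, lower scores made up 100% at mt-Nd3 and mt-Nd4l and 52.0% at mt-Nd2. They made up 0% at mt-Nd1, 0.242% at mt-Nd4 and 5% at mt-Nd5. The genes fell into 3 kinds. At mt-Co2, mt-Atp6, mt-Co3 and mt-Atp8 all records had a lower score. At mt-Cytb none had one (0 of 412 in mES and 0 of 883 in mEF, which allows up to 0.891% and 0.417%). mt-Co1 was mixed, with 89.4% in mES (88.1 to 90.5) and 94.0% in mEF (93.1 to 94.9).

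**Figure D3:**
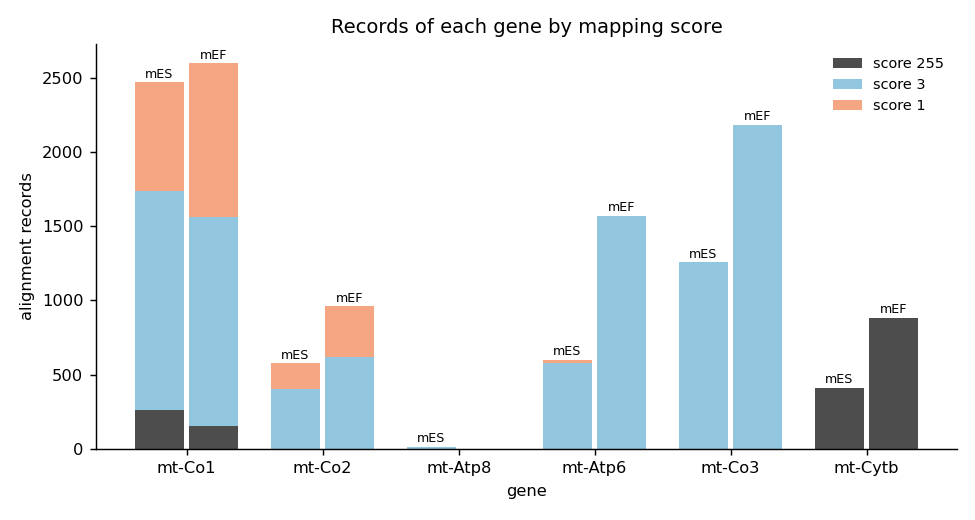
Alignment records of each gene in mES and mEF, stacked by mapping score: the highest score for a single placement (dark), and 3 (blue) and 1 (orange) for several placements. mt-Cytb has only the highest score, mt-Co2, mt-Atp6 and mt-Co3 have none of it, and mt-Co1 has 263 such records in mES and 155 in mEF.

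The other placements of these reads were read from the lines that share a read name. Of the 11801 reads with a lower score, 11547 (97.8%) were also placed on chromosome 1, between 24620058 and 24623017 (mm9) on the minus strand. In all 11547 of these, the sum of both positions was the same number, so these placements on chromosome 1 run in reverse order to the mitochondrial ones, at equal spacing, from mt-Co3 back into mt-Co1. Another 2498 placements, of mt-Co1 and mt-Co2 reads only, were on chromosome 2 between 22442862 and 22445038. At mt-Co2 this applied to 172 of 575 mES reads (29.9%) and 340 of 962 mEF reads (35.3%). Which copy a read with a lower score came from cannot be told from the files. This covers all records of mt-Co2, mt-Atp6, mt-Co3 and mt-Atp8, and those of mt-Co1 without a single placement. For mt-Cytb, whose reads had a single placement, the 3.51-fold difference stands without multiply placed reads. The 6 genes together had a log2 ratio of -1.33 with single placements alone and -1.33 with lower scores alone, but the first of these is made up of mt-Cytb and part of mt-Co1 only.

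mt-Co1 differed along its length. The last 5′ end with a single placement was at 6385, and all 1987 mES and 2405 mEF records from 6400 on had a lower score. In this 3′ part the gene was at 2647 CPM in mES and 5240 CPM in mEF, a log2 ratio of -0.99 (-1.07 to -0.90). Runs 1 and 2 gave -0.92 and -0.84 there, while run 3, with 57 mES and 8 mEF records, went the other way at 0.96, with an interval (-0.12 to 2.24) that includes 0. In the 5′ part it was at 646 CPM in mES, with 485 records at 42 positions, and at 423 CPM in mEF, with 194 records at 15 positions. The log2 ratio there was 0.61 (0.37 to 0.86), and runs 1 and 2 gave 0.77 and 0.69. Run 3 gave -0.57, with an interval (-1.47 to 0.40) that includes 0. One stretch of 300 nt in this part holds 201 mES and 17 mEF records. Without it, a setting chosen after seeing the data, the 5′ part had 284 mES and 177 mEF records, or 378 and 386 CPM. The log2 ratio was then -0.028 (-0.30 to 0.25). In runs 1, 2 and 3 it was 0.16, -0.086 and -1.03. Only the interval of run 3 (-1.99 to -0.01), with 27 mES and 15 mEF records, excludes 0. As the stretch holds mainly mES records, leaving it out had to lower the ratio. With single placements alone, which keeps only records of the 5′ part, mt-Co1 was at 350 CPM in mES and 338 CPM in mEF, a log2 ratio of 0.053 (-0.24 to 0.35). That ratio is thus one of the 5′ part, while the 3′ part holds 1987 of 2472 mES records and 2405 of 2599 mEF records.

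Most 5′ ends lay shortly before the 3′ end of a gene. Of the 6 genes' records, 77.5% in mES and 87.3% in mEF began less than 300 nt before the last base of their window. The median distance was 159 nt in mES and 114 nt in mEF at mt-Co1, 202 and 164 nt at mt-Co2, 182 and 167 nt at mt-Atp6, 185 and 134 nt at mt-Co3, and 193 and 196 nt at mt-Cytb. The mES median was the longer one at 4 of these 5 genes. At mt-Co1 38.8% of the mES and 42.8% of the mEF records began in the last 100 nt, against 1.21% and 2.38% at mt-Cytb. These distances are to the end of the counted window, which need not be the end of the transcript. At mt-Co1 in mEF, the 23 records of run 3 had a median distance of 1375 nt.

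**Figure D4:**
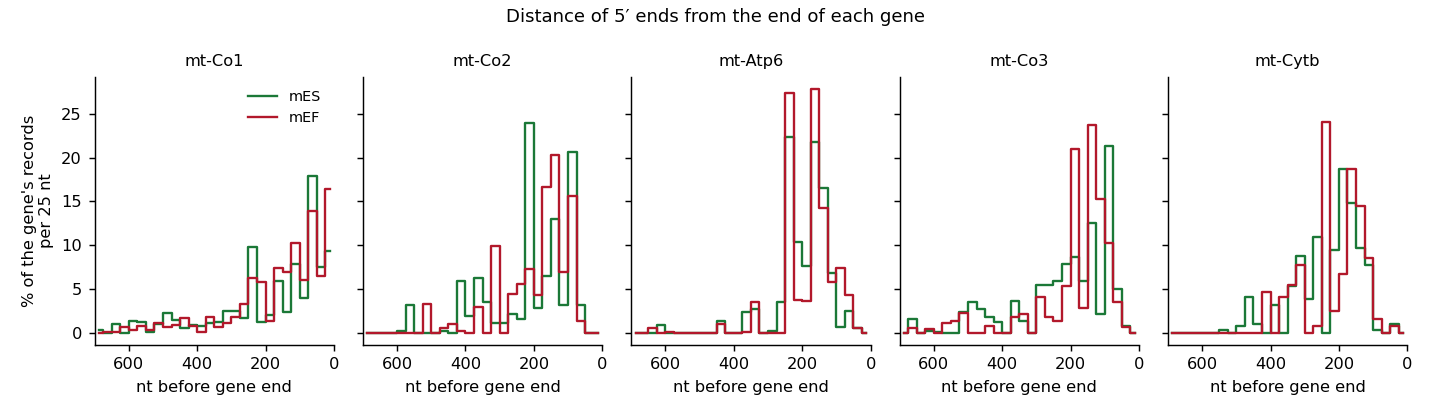
Share of each gene's records, in percent per 25 nt, by the distance of the 5′ end from the last base of the gene's window, for mES (green) and mEF (red) over the last 700 nt. Most 5′ ends lie within 300 nt of the end in all 5 genes, at mt-Co1 they continue to the last base, and mt-Co1 holds a further 12.6% of its mES records and 3.62% of its mEF records beyond the plotted range.

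The aggregates had part of their bases in common. Of the positions of the 6 genes, 96 were shared, which is 29.5% of the mES and 38.1% of the mEF positions, and these held 39.2% and 49.8% of the records. The shared part over all positions of the aggregates was not computed. Whether these shares are particular to the 6 genes therefore cannot be told. Among the 5 genes other than mt-Atp8, whose 1 position was found in mES alone, the overlap was smallest at mt-Cytb, with 5 positions in common of 30 and 24. There the most frequent mES position lay 193 nt before the gene's end and held 51 records, 33 of run 1 and 18 of run 2, and no mEF record. The most frequent mEF position lay 242 nt before the end and held 96 records, 64 of run 1 and 32 of run 2, and no mES record. The last 250 bases of mt-Cytb, which hold 61.7% of its mES and 77.3% of its mEF 5′ ends, are shown because all its reads had a single placement. Capitals mark the 35 bases aligned from the most frequent mEF position, which comes first, and from the most frequent mES position.
mt-Cytb: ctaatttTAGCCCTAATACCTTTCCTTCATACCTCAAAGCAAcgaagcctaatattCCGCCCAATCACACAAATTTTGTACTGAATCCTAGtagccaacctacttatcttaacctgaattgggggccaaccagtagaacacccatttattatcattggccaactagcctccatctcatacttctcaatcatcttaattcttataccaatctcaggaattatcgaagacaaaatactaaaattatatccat

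At the other genes the leading positions were partly common. At mt-Atp6 the position 161 nt before the end held 55 mES and 176 mEF records, and the leading mES position, 227 nt before the end, held 98 mES and 74 mEF records. The base beside it, 228 nt before the end, held 175 mEF records and no mES record. At mt-Co3 the leading mEF position, 194 nt before the end, held 254 mEF and 10 mES records. At mt-Co2 the leading mES position, 222 nt before the end, held 103 mES records, 17.9% of the gene, and none of mEF. Single positions thus carried up to 17.9% of a gene's records in the 5 genes other than mt-Atp8.

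mt-Co1 also held the one run of 7 A in the 6 transcripts (AAAAAAA on the plus strand, found in 1 of 6 transcripts), at bases 789 to 795 of the gene and 756 nt before its end. In the 300 nt upstream of this run, the stretch left out above, 201 mES records began at 15 positions, 8.13% of the gene, with 128 in run 1, 63 in run 2 and 10 in run 3. In mEF 17 records began there at 2 positions, 0.654% of the gene. Of the records of the whole 5′ part, 263 of 485 in mES and 155 of 194 in mEF had a single placement. Without the stretch these were 194 of 284 and 139 of 177. Many of the mES records in the stretch were thus placed at several sites. The run of A is a description of the sequence, and its part in these 5′ ends was not tested.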

How the data were processed

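The deposited files list, per the file contents, 1 alignment per line with chromosome, start, end, read name, mapping score and strand. The authors made them by aligning reads with TopHat to mm9 (submitters' processing notes; version not given in the sources used here) and pooling them by cell type. How the 6 libraries fall into the 3 runs was not given in the sources used here. The score, as deposited by the authors, was 0, 1, 3 or 255. Records, CPM, positions and ratios were computed here. Depth was 750739 mES and 459005 mEF records, so 3 counts are 4.00 and 6.54 CPM.

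A record was assigned by its 5′ end, counted from 1. Gene names, IDs, tRNA and complex I borders and sequences come from GENCODE M21 (GRCm38). The windows of mt-Co1, mt-Co2, mt-Co3 and mt-Cytb equal its genes, and 303 records begin exactly on its first base of mt-Rnr2, with 1 in the 5 nt before. No other coordinates of that build were used. Sequences were cut from transcripts by symbol. Ratios used 3 counts in place of 0, and none is given where both counts are 3 or fewer. Intervals are exact Poisson, binomial or conditional binomial ones. Loci were joined at 500 nt with at least 50 records.

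The genes and lists were chosen with earlier results of these data known. Genes named are the 6 members, with complex I and rRNA as groups, and positions named are among the 3 with the most records. The run of A and the division of mt-Co1 at 6385 were chosen after the values were seen. Steps over loci were tested on simulated data. The barcode list was not used. Computations used Python 3.11.15, numpy 2.4.6, pandas 2.3.3 and scipy 1.17.1.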

Additional observations from a re-analysis of the deposited data

Results flagged for a closer look

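Records beyond the counted windows exceeded what a count of 0 allows. Past the end of mt-Co1, within the stretch opposite mt-Ts1 (6873 to 6938), 109 mES and 186 mEF records began on the plus strand, at 26 positions, and 6 of them came from run 3. They lie on the strand opposite to this tRNA gene. Past the end of mt-Cytb, within mt-Tt (15289 to 15355), there were 48 mES and 41 mEF records at 6 positions. Past the end of mt-Co3, within mt-Tg, 14 mES records began at 1 position, and mEF had none. Past mt-Co2 there were 0 in either. Antisense records within the 6 genes came to 5 in all.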

How the results depend on the processing

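The log2 ratio of the 6 genes together, -1.33, stayed below 0 in every setting run. It was -0.73 by distinct positions, -1.24 in run 1, -1.22 in run 2, -0.70 in run 3, -1.46 without run 1, -1.23 without run 3 and -1.17 per mitochondrial record. Single ratios of the 5 genes other than mt-Atp8 kept their direction in 89 of 91 alternatives. This count is no measure of firmness, since some settings, such as moving the mt-Atp8 border, left these genes' counts unchanged. With single placements alone mt-Co2, mt-Atp6 and mt-Co3 have no records, so they add no alternative there. The 5′ part of mt-Co1, at 0.61, came to -0.028 without the 300 nt before its run of A, a setting chosen after seeing the data. mt-Co1 was at 0.053 with single placements and at 0.16 in run 3, and mt-Atp8, at 1.51, was at 0.55 without second copies, at 0.35 in run 3 and at -0.44 with each read shared over its placements, where mES has 5.72 CPM and the mEF zero is taken as 3 counts.

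The levels in mES and mEF, 7098 and 17867 CPM, were 899 and 2261 with single placements, 6199 and 15605.5 with lower scores, 4639 and 11334 with each read shared over its placements, and 6024 and 9979 by positions. By run they were 7986 and 18858, 8196 and 19108, and 1470 and 2392. Without runs 1, 2 and 3 in turn they were 5852 and 16102.5, 6691 and 17348, and 8052 and 18937. Without second copies the mES level was 7312. With totals off the mitochondrial chromosome they were 7292 and 18415, per 1000000 mitochondrial records 266837 and 600234, with whole records in the window 6715 and 16795, and with 66 nt added to mt-Co1 and mt-Cytb, a setting chosen after seeing the data, 7307 and 18361.5.

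The share with lower scores, 87.3% in both, was 83.4% in mES by positions, and in run 3 it was 83.1% in mES and 67.6% in mEF. The share within 300 nt, 77.5% and 87.3%, was 27.4% and 22.0% within 100 nt, 90.3% and 95.8% within 500 nt, 46.7% and 66.5% with single placements, 66.5% and 76.6% by positions, 71.9% and 78.9% in run 3, and 88.2% for mEF in run 2. The share also on chromosome 1, 95.4% and 99.5%, was 92.3% and 97.9% in run 3. Past 4-fold lay 1303 loci toward mES and 1061 toward mEF. These counts became 4950 and 3598 when 10 records were enough for a locus, and 85 and 111 when it took 200, since more or fewer loci are compared. The cause of the other moves was not tested. Ignoring strand, moving the mt-Atp8 border and pseudocounts of 1 and 10 CPM left the combined ratio at -1.33. Few positions per gene and the depth of run 3 limit all ratios.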
